A study of Mus musculus with 5 samples.

Results

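The 10 genes described here encode 6 matrix metalloproteinases (Mmp2, Mmp3, Mmp11, Mmp13, Mmp14 and Mmp23), 3 of their tissue inhibitors (Timp1, Timp2 and Timp3) and the related secreted protease Adamts1. They were chosen by name, as 10 of the 41028 gene names in the deposited matrices, to ask which cell class of a mammary tumour carries each transcript. Earlier results of these data were known when they were chosen. All 10 had UMIs in every library. Their levels were read in 5 single-cell libraries from mammary tumours of PyMT mice. In these mice a transgene gives the polyoma virus middle T antigen to the mammary epithelium, so every library comes from tumour tissue and none from normal gland. Fresh 10x 1 and fresh 10x 2 were digested tumours loaded on the 10x Genomics droplet system (3' v2 chemistry). Stored 10x was loaded on the same system from a digest kept overnight at 4 °C, given as 24 h in its title, whose viability had fallen by at least 20% in flow cytometry. BD 1 was a fresh digest loaded on the microwell system BD Rhapsody with its whole transcriptome assay. BD 2 was loaded on BD Rhapsody too. Its title calls it fresh while its deposited files carry the 24 h name, so it stands alone here and entered no storage comparison. The labels give no age, no strain and no number of animals, and nothing says that the samples came from separate tumours. P-values below therefore measure only the spread between the 2 fresh 10x samples, which may be technical.

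Matrix metalloproteinases are zinc enzymes that are made as inactive precursors and cut collagens, proteoglycans and other proteins around cells. Tissue inhibitors of metalloproteinases (TIMPs) bind their active sites, and the balance of enzymes and inhibitors sets how much matrix is turned over in a tumour. In mammary carcinomas stromal fibroblasts are known as a main source of several of these enzymes. Mmp14 sits in the cell membrane and, together with Timp2, activates the precursor of Mmp2, so an inhibitor can also act as part of an activating complex.

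The 5 libraries held between 1864 and 4078 cells with at least 200 genes and between 29166129 and 59957945 UMIs in all (unique molecular identifiers, each standing for a captured molecule). Cells were clustered with all 10 genes and the 53 further protease genes left out, so that no gene described here helped to place a cell. The median mitochondrial share of UMIs was 6.14% to 7.17% in the 10x libraries but 15.2% in BD 1 and 19.8% in BD 2, and this difference goes with the platform throughout. BD 1 and BD 2 shared 24 cell barcodes, fresh 10x 2 and stored 10x shared 5, and the other pairs shared 1 or 0. Clusters whose markers passed the naming rule gave 6 classes used here: fibroblast-like, mural-like (vessel wall), endothelial-like (vessel lining), epithelial-like (mostly tumour), macrophage-like and T-like cells. The T-like cluster was also led by Igkc and Gzmb, genes of plasma and cytotoxic cells, so its name covers a mixture. Of the fibroblast-like cells 192, 120, 312, 334 and 229 came from fresh 10x 1, fresh 10x 2, stored 10x, BD 1 and BD 2. Endothelial-like cells fell from 172 in fresh 10x 1 to 13 in BD 2 and mural-like cells from 68 to 7, so values of those classes in the BD libraries rest on few cells.

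Start-site sequences are shown for 2 pairs of family members, because the members of each pair differed in which fibroblast type had the higher level and in how they changed between libraries. Each runs from 250 bases before to 50 bases after the annotated start, in the RefSeq annotation of GRCm38.p6, and 9 of the 10 genes matched that table. Capitals mark the AP-1 element TGANTCA, the TATA element TATAAA and the GC box GGGCGG, searched on both strands.
Mmp3, chr9:7445572-7445871, plus strand: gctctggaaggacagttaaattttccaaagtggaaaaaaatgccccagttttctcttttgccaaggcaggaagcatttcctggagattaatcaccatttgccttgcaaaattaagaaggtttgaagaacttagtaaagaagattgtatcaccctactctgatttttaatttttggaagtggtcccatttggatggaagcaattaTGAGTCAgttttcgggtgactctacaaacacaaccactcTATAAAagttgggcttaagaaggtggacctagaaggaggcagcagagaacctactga
Mmp13, chr9:7272264-7272563, plus strand: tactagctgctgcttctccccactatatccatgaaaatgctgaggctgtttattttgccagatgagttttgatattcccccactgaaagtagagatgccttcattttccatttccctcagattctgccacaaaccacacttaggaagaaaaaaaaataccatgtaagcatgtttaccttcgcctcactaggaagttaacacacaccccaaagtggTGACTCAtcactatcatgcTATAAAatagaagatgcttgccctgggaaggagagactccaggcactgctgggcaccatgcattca
Timp1, chrX:20869916-20870215, plus strand: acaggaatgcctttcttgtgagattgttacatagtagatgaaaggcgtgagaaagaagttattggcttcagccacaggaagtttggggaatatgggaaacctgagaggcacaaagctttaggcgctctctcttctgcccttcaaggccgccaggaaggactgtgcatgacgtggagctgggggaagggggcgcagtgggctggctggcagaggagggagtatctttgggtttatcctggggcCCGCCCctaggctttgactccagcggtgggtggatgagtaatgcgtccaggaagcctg
Timp2, chr11:118355362-118355661, minus strand: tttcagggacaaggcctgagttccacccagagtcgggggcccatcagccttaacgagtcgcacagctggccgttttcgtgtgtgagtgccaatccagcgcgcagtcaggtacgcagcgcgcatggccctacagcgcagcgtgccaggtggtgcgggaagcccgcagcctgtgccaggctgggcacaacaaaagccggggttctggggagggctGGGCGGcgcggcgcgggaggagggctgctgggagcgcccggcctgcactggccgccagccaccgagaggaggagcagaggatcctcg
Mmp3 and Mmp13 lie on the same chromosome, and each window holds an AP-1 element and a TATA element. The AP-1 match begins 46 bases before the start of Mmp3 and 35 bases before that of Mmp13. The TATA match begins 7 bases before the annotated start of Mmp3 and 16 bases before that of Mmp13. Both elements occur together in 1.54% of 32851 promoters of the same length, the AP-1 element in 7.81% and the TATA element in 13.6%. Of the 9 genes, these were the 2 with an AP-1 match, and Adamts1 was the other one with a TATA match. The GC box, found in 35.7% of all promoters, was present in the other 7 genes, and GC content was 40.0% for Mmp3 and 43.7% for Mmp13 against 55.0% for Timp1 and 68.7% for Timp2. A match describes letters in the window and does not show that a factor binds there.

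Fibroblast-like cells carried the highest mean level of all 10 genes among the 4 classes with at least 20 cells in every library. The share of all genes that led in this class is not given here, so the count is not read as particular to these genes. Levels are in CPM, the UMIs of a gene per 1000000 UMIs of the class, summed over its cells in a library, and are given in the order fresh 10x 1, fresh 10x 2, stored 10x, BD 1 and BD 2. Because 3' counting captures genes unequally, each gene is compared with itself across classes and not with other genes. Gene positions are those of the GENCODE annotation of GRCm38, the assembly that mm10 names. Intervals are exact 95% Poisson intervals, which cover counting error only.

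**Figure D1:**
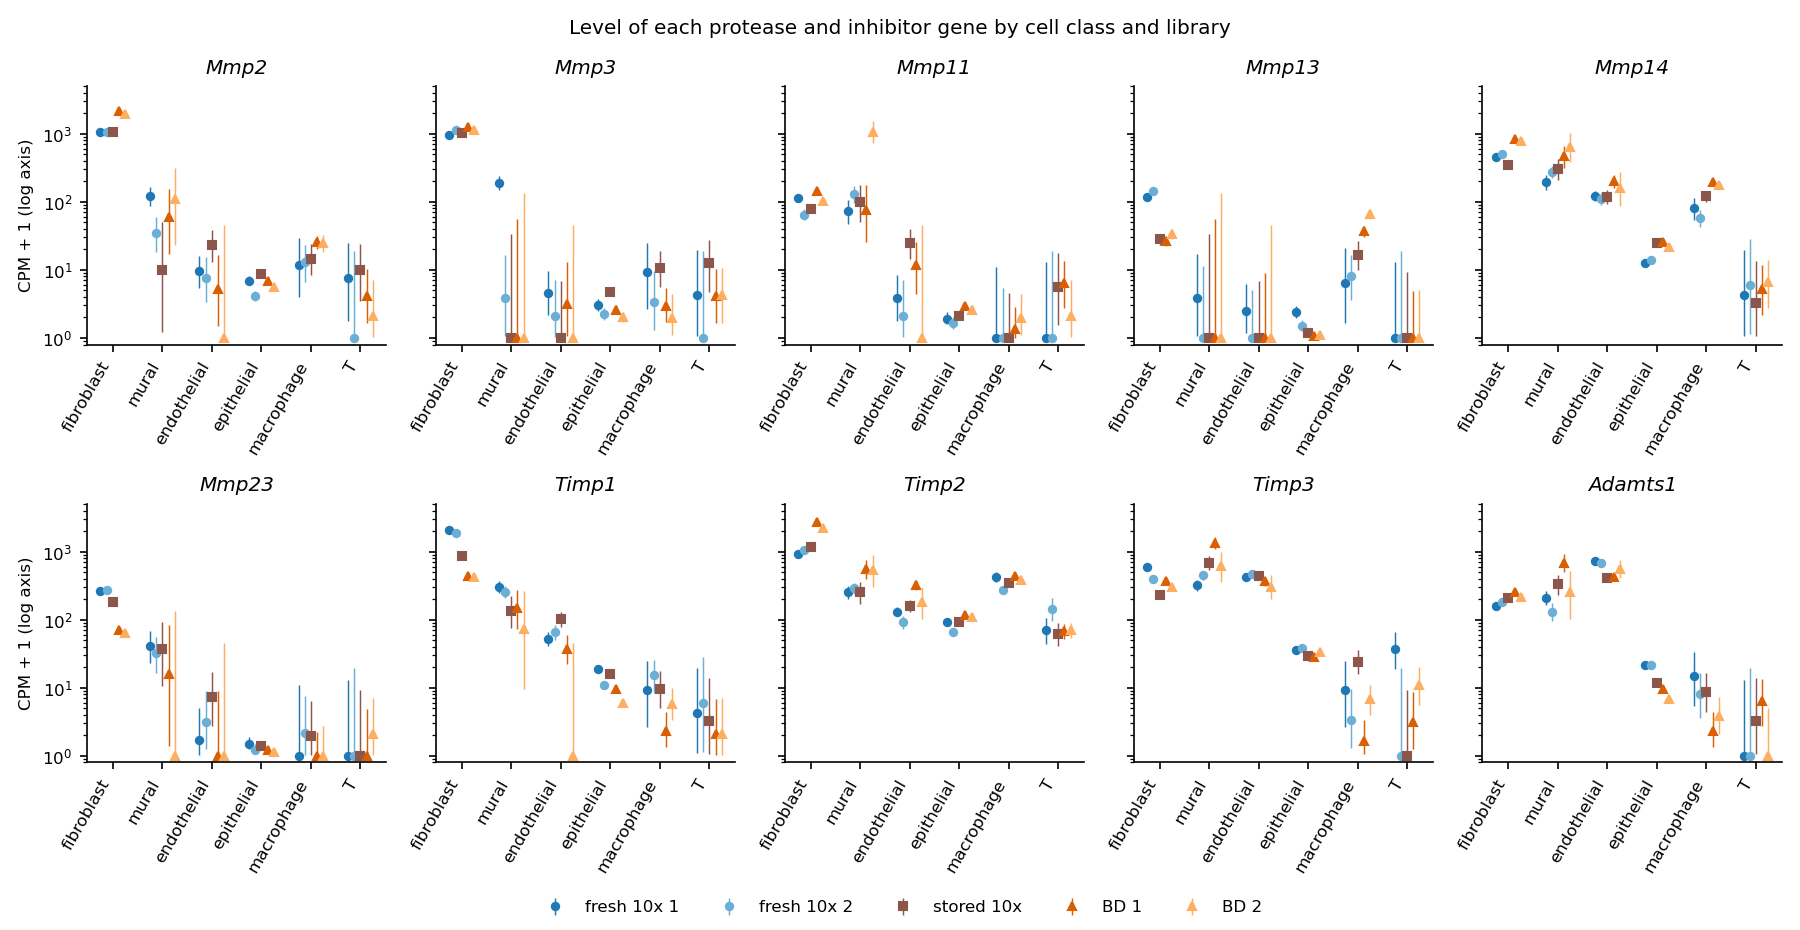
Level of each gene in CPM plus 1 (log axis) in 6 cell classes, 1 point per library with exact 95% Poisson intervals. The fibroblast-like points of Mmp2, Mmp3, Mmp23 and Timp1 lie above those of every other class, while Timp3 and Adamts1 reach the same range or higher in mural-like and endothelial-like cells.

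Mmp2 (chr8:92827291-92853420), the gelatinase that digests denatured and basement-membrane collagen, was at 1057, 1072, 1071, 2123 and 1953 CPM in fibroblast-like cells. The 3 10x libraries were nearly equal and the 2 BD libraries lay well above them. Macrophage-like cells, the next of the 4 classes, had a mean of 16.9, so the fibroblast-like mean of 1455 was 86.0 times higher. Nearly every fibroblast-like cell had a Mmp2 UMI, at least 98.4% of cells in each library. With each cell thinned to 2000 UMIs (called equal depth below) the shares were 81.2%, 88.3%, 84.0%, 93.7% and 90.4%. Mmp2 thus marked the whole class, on either platform and after storage.

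Mmp3 (chr9:7445822-7455975), stromelysin-1, which cuts proteoglycans and activates other metalloproteinase precursors, was at 958, 1116, 1003, 1237 and 1116 in the same cells. It was the gene with the most even level, with all 5 libraries within the range of 958 to 1237. Its mean was 234 times that of macrophage-like cells. A smaller part of the class carried it than carried Mmp2, with 30.2%, 41.7%, 43.6%, 50% and 48.9% of cells at 2000 UMIs. In fresh 10x 1 the mural-like level was 189, but 61 of those 66 UMIs came from 1 cell.

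Mmp23 (chr4:155650655-155653384), a membrane-anchored metalloproteinase, was at 261, 269.6, 179, 69.6 and 61.8 in fibroblast-like cells. Between 95.4% and 97.3% of all its UMIs lay in that class, the narrowest range of the 10 genes. Mural-like cells had 40.2, 30.9 and 35.7 in the 10x libraries, and each of the other 4 classes had at most 6.34. The share of fibroblast-like cells with a UMI at equal depth was 39.6% and 41.7% in the fresh 10x libraries against 14.1% and 10.9% in the BD libraries.

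Mmp11 (chr10:75923222-75936496), stromelysin-3, an enzyme known from the stroma of carcinomas that is activated inside the cell by furin, was found in 2 classes. Fibroblast-like cells had 113, 63.9, 76.7, 141 and 102, and mural-like cells had 71.8, 129, 98.1, 74.5 and 1071. The last value rests on 7 cells and 30 UMIs, of which 25 came from 1 cell. Within the 10x libraries, a comparison chosen after seeing the data, the mural-like mean was 99.7 ± 28.7 and the fibroblast-like mean 84.5 ± 25.3 (SD, n = 3), and the values overlapped. Mmp11 overlaps Chchd10 on the opposite strand, which had 32056 UMIs against 2451 for Mmp11. Use of strand in the counting is not given in the sources used here. An exchange of reads between them was not tested.

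Mmp14 (chr14:54431612-54445364), the membrane-type enzyme that activates Mmp2, was the protease with the widest range of classes. Fibroblast-like cells had 451, 502, 341, 834 and 791, and mural-like cells had 192, 275, 303, 462 and 642. Endothelial-like cells had 121, 109.6, 116, 198 and 158, and macrophage-like cells 79.3, 55.8, 119, 197 and 174. Within each library the order fibroblast-like over mural-like over endothelial-like held, while the endothelial-like and macrophage-like ranges overlapped. T-like cells stayed at 2.28 to 5.53 CPM.

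Mmp13 (chr9:7272514-7283331), collagenase-3, was found in the fewest fibroblast-like cells of the 10 genes. Fibroblast-like cells had 116, 142, 27.0, 25.1 and 32.7 CPM, with intervals of 103 to 130.2 and 125 to 159.6 in the fresh 10x libraries and 22.0 to 32.7 in stored 10x. These UMIs came from 37, 19, 11, 17 and 10 cells, and 1 cell held 66.0% of them in stored 10x and 38.8% in BD 2. Macrophage-like cells had 5.47, 7.12, 15.5, 35.9 and 65.3, from 1, 5, 9, 19 and 16 cells. In BD 1 and BD 2 the macrophage-like level was thus higher than the fibroblast-like level, and in the 3 10x libraries it was lower. A single cell held 65 of the 135 macrophage-like UMIs of BD 2. T-like cells had none in any library, which allows at most 14.8 CPM in the shallowest of them. With cells thinned to 2000 UMIs, 3.02% and 3.07% of macrophage-like cells of BD 1 and BD 2 had a UMI, against 0% of their T-like cells (upper limits 3.27% and 2.40%).

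Among the inhibitors, Timp1 (chrX:20870166-20874735), a secreted inhibitor of many metalloproteinases, was at 2059, 1857, 847, 443 and 419 in fibroblast-like cells. It was highest in the fresh 10x libraries, lower in stored 10x and lowest in the BD libraries, without overlap. Mural-like cells came next with 301, 255, 134, 149 and 71.4, and epithelial-like cells had 18.0, 9.94, 14.7, 8.65 and 5.06. All 192 and 120 fibroblast-like cells of the fresh 10x libraries had a Timp1 UMI. At equal depth the shares were 82.8% and 76.7% there and 44.3% and 42.8% in BD 1 and BD 2.

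Timp2 (chr11:118301069-118355740), the inhibitor that also takes part in the activation of Mmp2, ran the other way, with 912, 1066, 1171, 2666 and 2229.9 in fibroblast-like cells. It was also present in every other class. Macrophage-like cells had 421, 269, 346, 433 and 379.9, and epithelial-like cells had 91.1, 64.0, 92.6, 117 and 107. The macrophage-like mean of 369.9 ± 65.9 (SD, n = 5) lay below every fibroblast-like value, a ratio of 4.35 between the means.

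Timp3 (chr10:86300372-86349506), which binds to the matrix and also inhibits Adamts and Adam proteases, was shared between fibroblasts and vessels. Fibroblast-like cells had 584, 390.0, 229.7, 367 and 296, mural-like cells 321, 446, 687, 1342 and 607, and endothelial-like cells 426, 462, 431, 362 and 304. In the 10x libraries the means were 485 ± 186, 440.0 ± 19.4 and 401 ± 178 (SD, n = 3) in mural-like, endothelial-like and fibroblast-like cells, and all 3 ranges overlapped. No class could therefore be placed first for Timp3.

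Adamts1 (chr16:85793827-85803113), which cleaves the proteoglycans versican and aggrecan, was highest in vessels. Endothelial-like cells had 729, 668, 404, 424 and 559, against 157, 181, 207, 256 and 211 in fibroblast-like cells. The endothelial-like values lay above the fibroblast-like values in every library. In the 10x libraries the endothelial-like mean of 601 ± 173 was also clear of the mural-like mean of 223 ± 101 (SD, n = 3), which overlapped the fibroblast-like values. The count of 10 genes leading in fibroblast-like cells leaves out both vessel classes. With the 10x libraries alone, where those classes reach 20 cells, 7 of the 10 genes led in fibroblast-like cells, and Mmp11 and Timp3 (mural-like) and Adamts1 (endothelial-like) did not.

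Free RNA from lysed cells gives UMIs in cells that do not express a gene, so levels outside fibroblasts were set against 6 fibroblast markers (Col1a1, Col1a2, Col3a1, Dcn, Lum and Pdgfra). In epithelial-like cells these stood at 0.104% to 0.715% of their fibroblast-like level, with a median of 0.194%. The median epithelial-like level was 0.130% of the fibroblast-like level for Mmp3, 0.230% for Mmp23, 0.296% for Mmp2 and 0.335% for Mmp13, inside that range. It was 1.21% for Timp1, 1.36% for Mmp11, 2.61% for Mmp14, 5.14% for Adamts1, 6.0% for Timp2 and 9.54% for Timp3, above it. These markers do not measure free RNA from vessel cells, which had more Adamts1 than fibroblast-like cells and a similar range of Timp3. The part of vessel RNA in the epithelial-like values of Adamts1 and Timp3 was not tested. In macrophage-like cells the markers reached at most 1.8%, while Mmp14 had a median of 22.0% and Timp2 of 25.3%. Mural-like cells held up to 22.4% of the marker level, and the part of fibroblast RNA in their values of Mmp2, Mmp23 and Timp1 was not tested.

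How much of the tumour's total each class supplied depended on its cell number as well as its level. Fibroblast-like cells held 92.9%, 94.7%, 90.3%, 97.3% and 96.1% of all Mmp2 UMIs and between 93.9% and 98.9% of all Mmp3 UMIs. Timp2 was split, with 47.2%, 49.7%, 47.8%, 71.7% and 60.7% in fibroblast-like cells and 43.7%, 39.1%, 45.6%, 21.6% and 31.8% in the far more numerous epithelial-like cells. Of the Adamts1 UMIs, endothelial-like cells held 50.4% and 39.9% in the fresh 10x libraries but 4.25% in BD 2, where 13 such cells were left. Macrophage-like cells held 0.590%, 2.03%, 12.5%, 35.6% and 51.9% of the Mmp13 UMIs. In BD 2 more Mmp13 UMIs thus came from macrophage-like than from fibroblast-like cells, which held 46.5%.

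**Figure D2:**
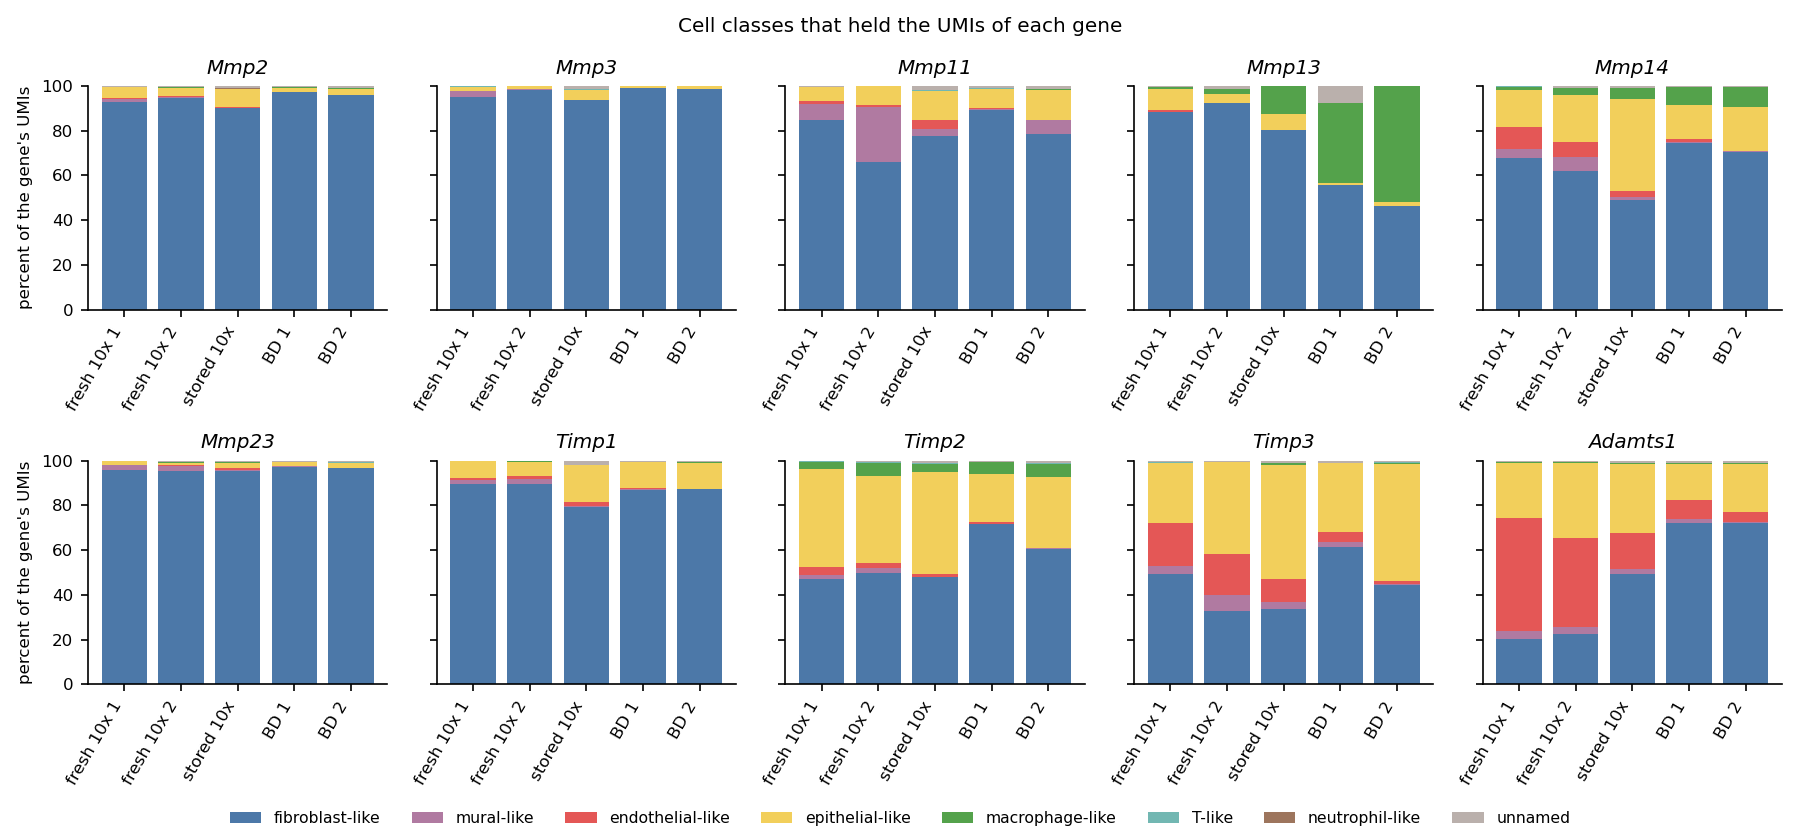
Percent of each gene's UMIs that came from each cell class, as 1 stacked bar per library. Fibroblast-like cells hold at least 90.3% of the UMIs of Mmp2, Mmp3 and Mmp23 in each library, whereas the Adamts1 bars shift from endothelial-like in the fresh 10x libraries to fibroblast-like in the BD libraries.

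Fibroblast-like cells fell into 2 clusters. One was led by Cilp, Thbs4, Lrrc15, Tnc and Postn, genes of matrix-producing fibroblasts (the Cilp type), and the other by Clec3b, Efemp1, Reg1, C3 and Dpt (the Efemp1 type). The Cilp type made up 81.2% and 65.8% of fibroblast-like cells in fresh 10x 1 and 2, but 26.6% of those in stored 10x, 29.0% for BD 1 and 24.0% for BD 2. This shift in make-up goes with every comparison of whole fibroblast-like sums, and the types are therefore also compared within each library, as a description with no test.

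Almost all Mmp13 UMIs of fibroblast-like cells lay in the Cilp type, at 144, 205, 91.7, 93.5 and 151 CPM. These levels lay above the macrophage-like levels in every library, also in BD 1 and BD 2, where the level over all fibroblast-like cells did not. The Efemp1 type had 2 and 11 Mmp13 UMIs in the fresh 10x libraries and none in the other 3, which allows at most 1.11, 0.608 and 1.03 CPM. Mmp3 showed the opposite order in every library, with 591, 740.3, 535, 687 and 698 in the Cilp type and 2459, 1854, 1198, 1439 and 1232 in the Efemp1 type. The mean log2 ratio of Cilp over Efemp1 type was −1.29 ± 0.47 (SD, n = 5). The pair whose windows both hold AP-1 and TATA elements thus differed in which type was higher, although the Cilp type held UMIs of both.

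Mmp14 was higher in the Cilp type in all 5 libraries (mean log2 ratio 0.83 ± 0.15), and so were Timp3 (0.95 ± 0.34), Mmp23 (0.52 ± 0.08) and Timp1 (1.22 ± 0.69, SD, n = 5 for each). Timp1 was at 2099, 2208, 1608, 876 and 956 in the Cilp type and 1893, 1167, 529.8, 285 and 270.5 in the Efemp1 type. The gap between the types was small in fresh 10x 1, with a log2 ratio of 0.15, and reached 1.82 in BD 2. Timp2 was higher in the Efemp1 type in all 5 libraries, with 858, 990.2, 746, 1131 and 994 in the Cilp type and 1134, 1214, 1348, 3229 and 2572 in the Efemp1 type. Adamts1 was also higher there (mean log2 ratio −0.92 ± 0.17). Mmp2 was spread evenly, with a ratio of 0.07 ± 0.13. Mmp11 leaned to the Cilp type in 4 libraries and to the Efemp1 type in BD 1, where the ratio was −0.42.

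**Figure D3:**
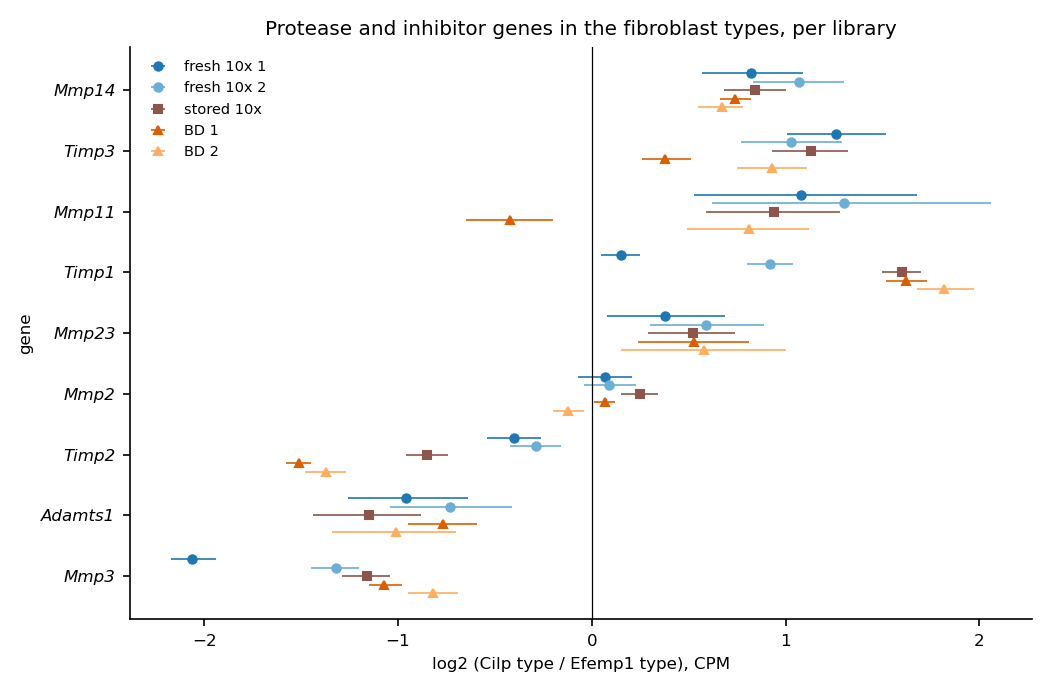
Log2 ratio of the level (CPM) in Cilp type over Efemp1 type fibroblasts for 9 genes, 1 point per library with its exact 95% counting interval. Mmp3, Timp2 and Adamts1 lie below 0 in every library and Mmp14, Mmp23, Timp1 and Timp3 above 0. Mmp13 is not plotted because the Efemp1 type had no UMI of it in 3 libraries.

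Among epithelial-like cells the level of Timp3 was highest in a small cluster. This cluster, led by the basal keratin Krt14 and carrying the basal markers, made up 6.49%, 4.52%, 4.62%, 3.25% and 3.16% of epithelial-like cells. Its Timp3 level was 474, 281, 311, 392 and 626, against 13.0, 26.3, 14.0, 12.2 and 10.8 in the epithelial-like clusters led by neither Krt14 nor Aldh1a3. It held 46.6%, 24.0%, 37.7%, 38.9% and 45.8% of the epithelial-like Timp3 UMIs, so most of them lay in the far more numerous other cells. Mmp14 followed the same order, with 48.6, 49.8, 75.3, 90.0 and 92.3 in the Krt14-led cluster and 7.87, 11.0, 18.5, 19.3 and 15.8 in those other clusters. The cluster led by Aldh1a3, a gene known from luminal progenitor cells, had the highest mean of Timp2 (201), at 178, 144, 177, 272 and 232. A cluster led by Smr2 and Wif1, counted among the other clusters, overlapped it, with a mean of 177 (128 to 231 over 4 libraries). Adamts1 was highest in the Aldh1a3-led cluster in the 10x libraries and BD 1, at 50.5, 86.8, 26.4 and 28.1, but in BD 2 the Krt14-led cluster was higher, at 49.3 against 18.3. The Krt14-led level of Mmp2 reached 14.9 to 56.6, and its relation to free fibroblast RNA was not tested.

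**Figure D4:**
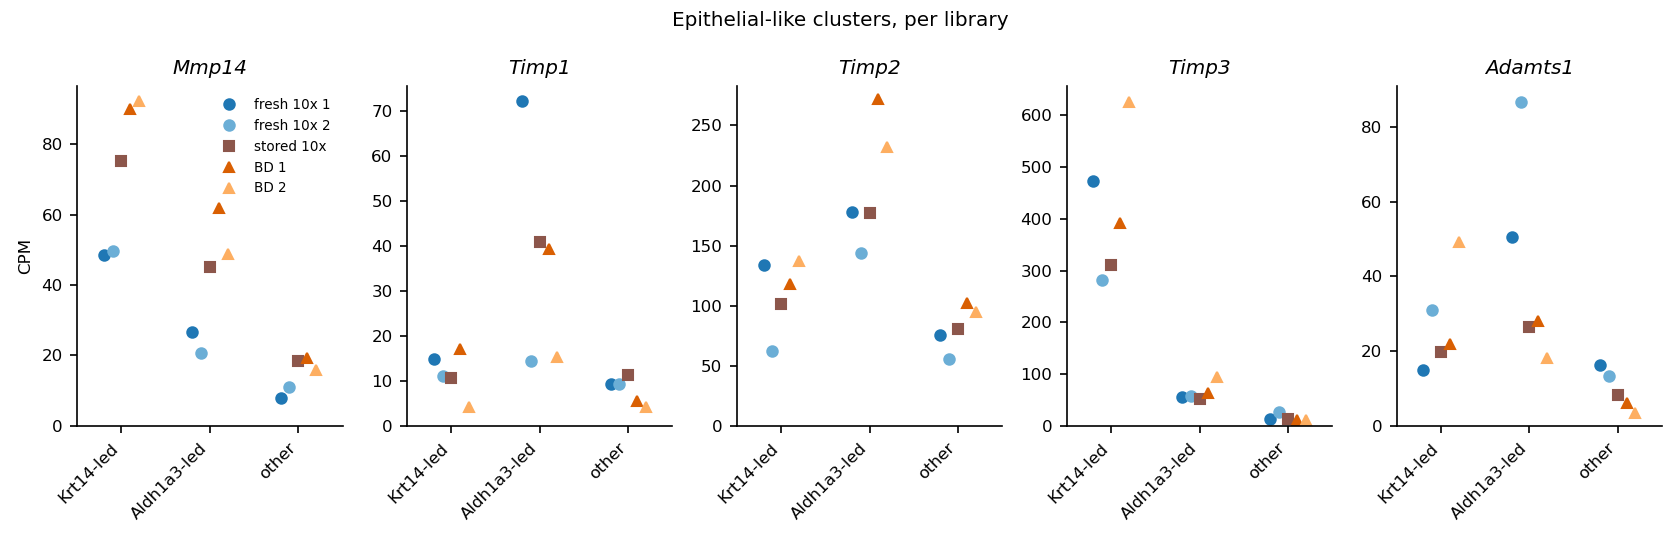
Level of Mmp14, Timp1, Timp2, Timp3 and Adamts1 in CPM in the Krt14-led, the Aldh1a3-led and the other epithelial-like clusters, 1 point per library, with an axis of its own for each gene. Timp3 stands between 281 and 626 in the Krt14-led cluster and between 10.8 and 26.3 in the other clusters.

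BD 1 was compared with the 2 fresh 10x libraries, which were loaded on the other platform. As BD 1 is 1 library, platform and sample cannot be told apart. In fibroblast-like cells, 5 of the 10 genes were higher in BD 1 and 4 were lower at an adjusted p under 0.05 (edgeR's quasi-likelihood test on UMIs summed per library, Benjamini-Hochberg over 11273 genes). Of all genes tested 46.2% passed, 22.7% as higher and 23.5% as lower. The median log2 change was 0.32 over the 10 genes and 0.02 over all genes tested. Proteases and inhibitors did not move as blocks, since each group had members in both directions.

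Among proteases, Mmp2 rose by a log2 change of 0.88 (SE 0.155, adjusted p = 5.53e-05) and Mmp14 by 0.69 (SE 0.169, adjusted p = 0.00169). Mmp11 was higher by 0.54 (adjusted p = 0.0402) and Adamts1 by 0.49 (adjusted p = 0.0244). Mmp13 fell by 2.47 on the log2 scale (SE 0.204, adjusted p = 1.05e-09) and Mmp23 fell by 2.04 (SE 0.193, adjusted p = 8.89e-09). The Mmp13 UMIs came from 37 and 19 fresh cells and from 17 cells of BD 1, where 1 cell held 20.1% of them. Mmp3 did not pass, at 0.14 (SE 0.166, adjusted p = 0.508). Among inhibitors, Timp2 rose by 1.32 (SE 0.157, adjusted p = 2.90e-07), Timp1 fell by 2.26 (SE 0.181, adjusted p = 6.49e-10) and Timp3 fell by 0.53 (adjusted p = 0.0391). For each of the 9 genes that passed, apart from Mmp11 and Timp3, the BD 1 value lay further from both fresh 10x values than these lay from each other. With DESeq2, which called 15.9% of all genes, the calls of Mmp11, Mmp14, Timp3 and Adamts1 were lost (adjusted p = 0.426, 0.0519, 0.260 and 0.325).

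Since the fibroblast types differed in share, the same test was run within each type. In the Cilp type, where 33.8% of all genes tested passed, Mmp2 (0.95), Mmp14 (1.03), Mmp23 (−1.75), Timp1 (−1.37) and Mmp13 (−0.95, adjusted p = 0.00411) still passed. Timp2 did not pass there, at 0.22 (adjusted p = 0.213). The Mmp13 UMIs of BD 1 fibroblast-like cells all lay in the Cilp type, in 17 cells. In the Efemp1 type, where 28.9% passed, Timp2 passed at 1.29 and Timp1 at −2.60, together with Mmp2 (0.87), Mmp14 (1.14), Mmp23 (−1.89) and Mmp11 (1.59, adjusted p = 2.44e-07). Mmp3 was lower there, by −0.75 (adjusted p = 0.00732), opposite in sign to its value over all fibroblast-like cells. Timp3 changed sign too, at 0.26 (adjusted p = 0.470). Mmp13 had too few UMIs in the Efemp1 type to be tested. The fresh 10x values of the Efemp1 type rest on 36 and 41 cells, against 237 in BD 1. In fresh 10x 1 and fresh 10x 2 a single cell held 7.55% and 11.8% of the Mmp3 UMIs of all fibroblast-like cells. Lower Timp1 and Mmp23 and higher Mmp2 and Mmp14 were thus found in both types. For Adamts1 the change was 0.21 in the Cilp type and 0.03 in the Efemp1 type (adjusted p = 0.329 and 0.938), so its call over the whole class was not found in either.

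**Figure D5:**
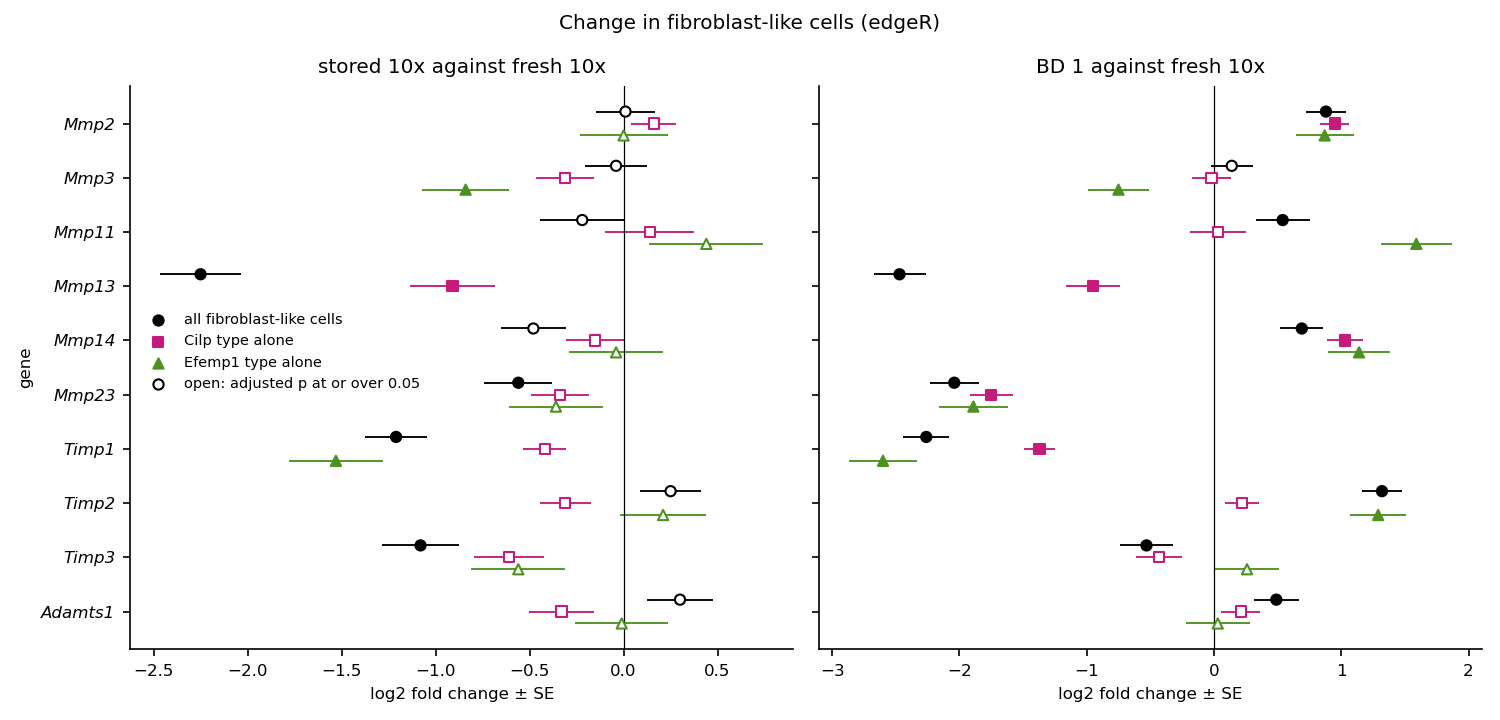
Log2 fold change with its standard error for stored 10x (left) and BD 1 (right) against the same 2 fresh 10x libraries, in all fibroblast-like cells (circles), the Cilp type (squares) and the Efemp1 type (triangles). Filled symbols passed an adjusted p of 0.05. Timp1 and Mmp13 lie left of 0 in both panels for every set of cells tested, while Mmp2 lies right of 0 in BD 1 and near 0 in stored 10x.

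In epithelial-like cells of BD 1, where 44.8% of all genes tested passed (22.6% higher and 22.2% lower), 1 of the 10 genes was higher and 3 were lower, and DESeq2, with 29.7% of all genes called, called the same 4. Mmp14 stood at 11.8 and 13.1 CPM in fresh 10x and 24.9 in BD 1, a log2 change of 0.85 (SE 0.135, adjusted p = 0.00229). Adamts1 stood at 20.8 and 20.5 against 8.50, a change of −1.43 (SE 0.144, adjusted p = 0.000355). Endothelial-like cells, where Adamts1 was highest, made up 8.55% and 5.44% of clustered cells in fresh 10x and 1.22% in BD 1. The part of their free RNA in the Adamts1 change was not tested. Timp3 stood at 34.3 and 37.2 against 26.8, a change of −0.57 (SE 0.123, adjusted p = 0.00832). The Krt14-led cluster, where Timp3 was highest, made up 6.49% and 4.52% of epithelial-like cells in fresh 10x and 3.25% in BD 1. Within it the BD 1 level of Timp3 (392) lay between the fresh levels (474 and 281). The part of this shift in the Timp3 call was not tested. For Mmp14, Adamts1 and Timp3 the BD 1 value differed from both fresh values by more than these differed from each other. Mmp13 passed too, at 1.39, 0.475 and 0.0646. Of the 33 Mmp13 UMIs in epithelial-like cells of fresh 10x 1, 17 came from 1 cell, and there were 12 in fresh 10x 2 and 3 in BD 1. Over the whole library 3 genes were higher (Mmp2, Mmp14 and Timp2) and 4 lower (Mmp13, Mmp23, Timp1 and Adamts1), with 40.5% of all genes passing (20.6% higher and 19.9% lower). DESeq2 called Mmp3 and Timp3 in addition, with 31.2% of all genes called. Whole-library Adamts1 was 70.3 and 52.5 in fresh 10x and 40.2 in BD 1, a change of −0.76 (adjusted p = 0.0469), opposite to its change within fibroblast-like cells. In a sum over the whole library, fewer cells of a class and less RNA per cell cannot be told apart, and BD 1 had 45 endothelial-like cells against 172 and 101.

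Stored 10x was compared with the same fresh 10x libraries, so both comparisons share their controls. Stored 10x is 1 library too, so storage and sample cannot be told apart. In fibroblast-like cells 4 of the 10 genes were lower and none higher, with 14.1% of all genes tested passing, 7.44% as higher and 6.63% as lower. The median log2 change was −0.35 over the 10 genes and 0.01 over all genes tested. Mmp13 fell by 2.25 on the log2 scale (SE 0.214, adjusted p = 1.89e-08), Timp1 fell by 1.21 (SE 0.164, adjusted p = 6.19e-06) and Timp3 fell by 1.08 (SE 0.207, adjusted p = 0.000485). Mmp23 fell by 0.56 (SE 0.180, adjusted p = 0.0358). The stored Mmp13 value rests on 11 cells, 1 of which held 66.0% of the UMIs. For all 4 genes called, the stored value lay below both fresh values. The other 6 did not pass. Mmp2 was at 0.01, Mmp3 at −0.04 and Timp2 at 0.25 (adjusted p = 0.973, 0.910 and 0.349).

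The share of Cilp type cells was 26.6% in stored 10x against 81.2% and 65.8% in the fresh libraries, and 3 of these 4 calls did not hold within the Cilp type. There, with 4.58% of all genes passing, Mmp13 still passed (−0.91, adjusted p = 0.0394), while Timp1 (−0.42, adjusted p = 0.0570), Timp3 (−0.61, adjusted p = 0.0895) and Mmp23 (−0.34, adjusted p = 0.261) did not. All Mmp13 UMIs of stored fibroblast-like cells lay in the Cilp type, so this call rests on the same 11 cells. In the Efemp1 type, with 2.73% passing, Timp1 passed (−1.53, adjusted p = 1.20e-07), Mmp3 passed as lower (−0.84, adjusted p = 0.0137), and Timp3 (−0.56) and Mmp23 (−0.36) did not (adjusted p = 0.310 and 0.725). The fresh values of the Efemp1 type rest on 36 and 41 cells, against 229 in stored 10x. With DESeq2, which called 2.17% of all genes, the call of Mmp23 over all fibroblast-like cells was lost (adjusted p = 0.642).

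In epithelial-like cells of stored 10x, where 1.84% of all genes tested passed, Mmp14 was higher and Adamts1 lower. Mmp14 was at 23.6 against 11.8 and 13.1, a log2 change of 0.94 (SE 0.131, adjusted p = 0.0130). Adamts1 was at 10.7 against 20.8 and 20.5, a change of −0.94 (SE 0.136, adjusted p = 0.0156). Both stored values lay outside the narrow fresh pair. Neither passed when cells under 500 UMIs or above 20% mitochondrial UMIs were left out, and with DESeq2, which called 1.32% of all genes, Mmp14 was at adjusted p = 0.0523. Endothelial-like cells made up 2.18% of clustered cells in stored 10x, against 8.55% and 5.44% in fresh 10x. The part of their free RNA in the lower Adamts1 value was not tested. At an unadjusted p under 0.05 there were 6 of the 10 genes in epithelial-like cells, against 17.3% of all genes. Over the whole library none of the 10 genes passed with edgeR, where 0.131% of all genes did (0.0981% higher and 0.0327% lower). At an unadjusted p under 0.05 there were 5 (Mmp13, Mmp23, Timp1, Timp3 and Adamts1), all lower, against 16.6% of all genes tested. DESeq2 called 4 of them, without Mmp23, and 2.67% of all genes.

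Whether a change differed between fibroblast-like and epithelial-like cells was tested in a single edgeR fit with each library as a block, a test added after seeing the data. In BD 1 the difference passed for Timp1 and Adamts1, against 6.44% of all genes tested. Timp1 was lower in BD 1 by more in fibroblast-like than in epithelial-like cells, and Adamts1 was higher in the former and lower in the latter. In fresh 10x 1 a single cell held 22.4% of the epithelial-like Timp1 UMIs. Within neither fibroblast type did the change of Adamts1 pass. The part of free vessel RNA in the epithelial-like Adamts1 values was not tested. In stored 10x the difference passed for Mmp3, Mmp14, Timp1 and Adamts1, against 4.02% of all genes tested. Mmp14 stood below the fresh values in stored fibroblast-like cells and above them in stored epithelial-like cells. Within the fibroblast types, however, stored Mmp14 was close to fresh, with 494 against 493 and 609 in the Cilp type and 277 against 279 and 291 in the Efemp1 type (log2 changes of −0.15 and −0.04, adjusted p = 0.644 and 0.991). The Cilp type, in which Mmp14 was higher, had a lower share in stored 10x. The part of that share in the lower level over all stored fibroblast-like cells was not tested.

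From the list of 53 further protease genes, 51 had UMIs and 24 reached a mean of 50 CPM in at least 1 of the 4 classes without vessels, over which the next leads were taken. The 5 such Adamts genes, Adamts2 (515), Adamts5 (441), Adamts12 (83.9), Adamts15 (82.7) and Adamts4 (61.6), led in fibroblast-like cells. Mmp19 (147), Adam9 (114) and Adam12 (63.4) led there as well, and so did Plat (409.9) and Serpine2 (884) of the plasminogen system and the clearance receptor Lrp1 (547). Macrophage-like cells led for Mmp12 (187), the macrophage elastase, for Plau (302) and its receptor Plaur (237), for Furin (234), Cd44 (153), Adam17 (121), Adam15 (101), Adam10 (87.9) and Adam8 (80.5). Epithelial-like cells led for Bsg (734) and Mmp15 (51.8), and T-like cells for Adam19 (63.7). Some of these leads did not hold in every library. Adam19 led in 2 of the 5, with a fibroblast-like mean of 62.0. Cd44 led in 3, with a T-like mean of 143, Adam8 in 3, and Adam10 and Plaur in 4. By the mean of the 3 10x libraries Adam19 was highest in fibroblast-like cells (61.4) and Cd44 in T-like cells (89.1, macrophage-like 87.8). With the vessel classes added, in the 3 10x libraries (chosen after seeing the data), 24 genes reached 50 CPM in 1 of the 6 classes and 7 of them led in vessels. Endothelial-like cells led for Adamts4 (249, 218 and 273), Adamts9 (198, 162 and 136), Adam10 (192, 171 and 135), Adam15 (155, 145 and 224) and Mmp15 (61.0, 89.0 and 68.2). Adamts4 and Adamts9 thus shared their leading class with Adamts1. Mural-like cells led for Adamts12 (112, 138 and 161) and for Serpine2 (2466, 2903 and 1499).

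In fibroblast-like cells of BD 1, 10 of 37 tested genes of this list were higher and 10 lower, with a median log2 change of −0.13. Over all genes 22.7% were higher and 23.5% lower with a median of 0.02, so these counts were near the background. DESeq2 called 7 of the list. The higher genes were Plau, Adam15, Adamts5, Mmp19, Cd44, Mmp27, Adamts15, Adam17, Adam10 and Adamts12. Plau, the urokinase that makes plasmin, went from 39.7 and 26.0 CPM to 262, a log2 change of 2.86 (adjusted p = 5.29e-11). The lower genes were Serpinb2, Mmp9, Mmp10, Adamts9, Adamts6, Adamts7, Adam12, Serpine2, Lrp1 and Bsg. Mmp9, the other gelatinase, went from 24.9 and 22.3 to 0.890 (−4.80, adjusted p = 4.25e-09). In stored 10x 3 of 38 were higher (Mmp15, Adam15 and Adamts15) and 13 lower (Serpinb2, Mmp9, Adamts9, Serpine2, Adamts6, Plaur, Adam12, Adamts7, Adamts16, Adam19, Adam9, Adamts4 and Plat), with a median of −0.24, where 7.44% of all genes were higher and 6.63% lower with a median of 0.01. DESeq2 called 2 of the list. The lower share of the Cilp type in stored 10x goes with these counts too. Serpine2, an inhibitor of plasminogen activators and thrombin, went from 1464 and 991 to 399.6 (−1.62, adjusted p = 1.71e-06), and Mmp9 was at 2.88 (−3.02, adjusted p = 2.55e-06). Serpinb2 was at 0 and 21.8 in the fresh libraries, so its calls rest on fresh 10x 2.

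The genes whose pattern was most like each member were found by Pearson's r of log2(CPM + 1) over 27 sums of a class in a library, among 11952 genes. These points share libraries, so r is a description. The closest gene was Mfap5 for Mmp2 (0.955), Cilp for Mmp3 (0.973), Serping1 for Mmp11 (0.954), Ccl8 for Mmp13 (0.952), Anxa5 for Mmp14 (0.968) and Nnmt for Mmp23 (0.976). For the inhibitors it was Sulf1 for Timp1 (0.961), Tppp3 for Timp2 (0.934) and Ehd2 for Timp3 (0.953), and for Adamts1 it was Cavin3 (0.963), followed by the basement-membrane collagen Col4a2 (0.949). Cilp was the gene nearest to Mmp3 across classes although Mmp3 was lower in the Cilp type within the fibroblasts, since most of the spread over these sums lies between fibroblasts and the other classes.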

How the data were processed

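Single-cell libraries of PyMT mammary tumours were read from 5 of 8 deposited matrices; a pooled fresh 10x matrix and 2 subsets of BD 1 were not used. The deposited values are UMI counts per gene and cell, whole numbers per the file headers, with no normalization. Cell Ranger 3.0.1 and mm10 are named in the submitters' processing notes; whether they apply to the BD Rhapsody files is not given in the sources used here. Samples were grouped by title. Spellings of the same symbol were merged into 41028 names. Cells with at least 200 genes were scaled to 10000 counts, and 2000 variable genes without the protease list, 30 principal components and 15 neighbours entered Leiden clustering at resolution 1.0 (Python 3.11.15, scanpy 1.11.5, igraph 0.11.9), which gave 20 clusters. A class needed at least 3 markers from fixed lists. Cluster names are rebuilt here and may differ from those of the study. A cluster of 1271 cells led by mitochondrial genes and one of 81 cells stayed unnamed. Scrublet at an expected rate of 0.06 marked 33 cells, which were left out; at under 0.5% of most libraries it hardly worked, so doublets may remain.

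UMIs were summed per class and library. Class levels are a description with exact Poisson or binomial 95% intervals, which cover counting error alone; a count of 0 allows up to 3 UMIs. Changes were tested with edgeR 4.0.16 (quasi-likelihood F test, TMM, filterByExpr, adjusted p under 0.05 over all genes tested) in R 4.3.3, BD 1 or stored 10x against the 2 fresh 10x samples, and DESeq2 1.42.0 was an alternative. On simulated data for BD 1 against fresh 10x, the test recovered 53.5% of 99 genes changed by log2 1 and 93% of 100 changed by log2 2 among 15409 genes of the whole library, and 31.3% of 99 and 85.7% of 98 among 10991 genes of fibroblast-like cells. Of the genes called there, 3.31% and 7.26% were false. The simulation gave every gene the same dispersion and changed few genes, while a large share was called in the real comparison, so its rates need not hold there. All 10 genes were named by rule; a gene of the wider list was named when it reached 50 CPM in some class or passed a test, except for an item that is not reported here; genes most like a member are the nearest by correlation. Alternatives were normalization tool, low-count filter, cell filters, clustering resolution, the list kept in the clustering, doublets kept, each fresh sample left out, all samples in 1 fit, either fibroblast type alone, and BD 2 grouped by title with and without a replicate block. The 10 genes and the lists were chosen with earlier results of these data known. Start-site sequences are from RefSeq and were searched by script.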

Additional observations from a re-analysis of the deposited data

Results flagged for a closer look

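The change of a gene against fresh 10x was compared between fibroblast-like and epithelial-like cells in a single edgeR fit with each library as a block, a test added after seeing the data. For BD 1 the difference passed for 2 of the 10 genes, against 6.44% of all genes tested. Timp1 fell more in fibroblast-like cells, with a difference of −1.61 on the log2 scale (SE 0.292, adjusted p = 0.00160), and stood at 2059, 1857 and 443 CPM there (fresh 10x 1, fresh 10x 2, BD 1) against 18.0, 9.94 and 8.65 in epithelial-like cells. Of the 428 epithelial-like Timp1 UMIs of fresh 10x 1, 96 came from 1 cell. Adamts1 moved in opposite directions over the whole classes, higher in fibroblast-like cells (157, 181 and 256) and lower in epithelial-like cells (20.8, 20.5 and 8.50), a difference of 1.78 (SE 0.177, adjusted p = 2.22e-06). Within the fibroblast types Adamts1 was at 133, 148 and 169 in the Cilp type and 257, 245 and 288 in the Efemp1 type. Neither change within a type passed. The part of free vessel RNA in the epithelial-like Adamts1 values, here and in stored 10x, was not tested.

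For stored 10x the difference passed for 4 of the 10 genes, against 4.02% of all genes tested, with the same fresh controls. Mmp14 was 341 against 451 and 502 in fibroblast-like cells and 23.6 against 11.8 and 13.1 in epithelial-like cells, a difference of −1.37 (SE 0.143, adjusted p = 5.58e-05). Timp1 gave −1.30 (SE 0.268, adjusted p = 0.0128) and Adamts1 gave 1.29 (SE 0.198, adjusted p = 0.00148). Mmp3 gave −1.18 (SE 0.310, adjusted p = 0.0491), but its epithelial-like level of 2.06, 1.23 and 3.69 lies in the range of free fibroblast RNA, and without cells under 500 UMIs or above 20% mitochondrial UMIs it was no longer called (adjusted p = 0.101). The Cilp type share of fibroblast-like cells differed between these libraries (81.2% and 65.8% for fresh 10x, 26.6% for stored 10x, 29.0% for BD 1), and its part in these differences was not tested. For Mmp14 in stored 10x the change within the Cilp type was −0.15 and within the Efemp1 type −0.04 on the log2 scale (adjusted p = 0.644 and 0.991).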

How the results depend on the processing

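Of 52 values that answer a comparison, 44 stayed within 1.5 times under every alternative run and 8 did not. DESeq2 called 4 of the 10 genes in the whole stored 10x library (edgeR 0), with 2.67% of all genes called (edgeR 0.131%). In fibroblast-like cells of BD 1 it called 5 (edgeR 9), with 15.9% of all genes called (edgeR 46.2%). In epithelial-like cells of stored 10x it called 1 (edgeR 2), with 1.32% of all genes called (edgeR 1.84%). With the Cilp type alone 5 genes were called in BD 1 (33.8% of all genes) and 1 in stored 10x (4.58% of all genes), against 4 in stored 10x with both types. With the Efemp1 type alone 2 were called in stored 10x (2.73% of all genes). This type had 36 and 41 cells in the fresh 10x libraries. Without cells under 500 UMIs or above 20% mitochondrial UMIs 0 were called in epithelial-like cells of stored 10x. The share of all genes called under that filter is not given here. There were 2 values that reversed, both in the Efemp1 type of BD 1: Mmp3 at −0.75 (adjusted p = 0.00732) and Timp3 at 0.26 (adjusted p = 0.470). Among 636 values of single genes 538 kept direction and side of the threshold, 24 lost it, 20 gained it, 52 moved and 2 reversed; except where fewer cells or samples entered, the cause was not tested.

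With BD 1 and BD 2 taken as 2 samples and the title number as a replicate block, 7 genes were called in epithelial-like cells. There were 10 in the whole library and 7 in fibroblast-like cells. In the test of BD 1 alone, which differs in its samples as well as in the block, these counts were 4, 7 and 9. The share of all genes called with the block is not given here, so these counts are not read as a result about the 10 genes. Deviations of same-numbered samples correlated at 0.146 over 2 pairs, so the numbers were not taken to pair the samples. Leaving out a fresh 10x sample leaves 1 library against 1, with no residual spread, so only log2 changes were computed. All 10 genes led in fibroblast-like cells in each alternative but 2: without BD 2, endothelial-like cells entered and 8 did, and with the 10x libraries alone, chosen after seeing the data, 7 did.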

Other observations

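In epithelial-like cells of BD 1, 14 of 33 tested genes of the wider protease list were higher and none lower (edgeR, adjusted p under 0.05), where 22.6% of all genes were higher and 22.2% lower. The median log2 change was 0.48 over the list and 0.01 over all genes, and DESeq2 called 8 of the list and 29.7% of all genes. Among them were Adamts13, Mmp25, Plau, Adam8, Adamts8, Adam15, Plaur, Adam9, Cd44, Adam17, Furin, Mmp15 and Adam10. Adam15, a membrane protease of the disintegrin family, gave 1.20 (SE 0.132, adjusted p = 0.000509), and Furin, which activates Mmp11 and Mmp14, gave 0.63 (SE 0.103, adjusted p = 0.00247). Over the whole library, fibroblasts included, 18 of 46 were higher and 2 lower, where 20.6% of all genes were higher and 19.9% lower (DESeq2 called 15 of the list and 31.2% of all genes). The higher genes were Adamts13, Plau, Mmp12, Adam8, Mmp8, Mmp25, Mmp19, Adamts5, Mmp27, Plaur, Adamts8, Adam15, Cd44, Adamts15, Adam9, Adam17, Furin and Adamts12, and the lower genes Adamts9 and Bsg. In stored 10x no gene of the list passed with edgeR in epithelial-like cells or over the whole library. At an unadjusted p under 0.05 there were 4 of 33 in epithelial-like cells, against 17.3% of all genes, and 17 of 43 over the whole library, against 16.6%. DESeq2 called none in epithelial-like cells (1.32% of all genes) and 3 over the whole library (Mmp12, Adamts9 and Serpine2, against 2.67%).

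At a finer resolution of 2.0, 2 clusters were named macrophage-like. Their cells were not exactly those used above, with 243 against 232 in BD 1. One was led by C1qa, Apoe, C1qb and C1qc, the other by Igkc, Igha, Lyz2, H2-Ab1 and Mmp12, of which Igkc and Igha are antibody genes. The second cluster carried the macrophage markers at a mean of 0.358 of the highest cluster, against 1.00 for the first. Mmp14 was higher in the C1qa-led cluster in every library, at 86.4, 75.0, 145, 237 and 234 CPM against 46.3, 34.8, 70.2, 117 and 58.0. Mmp12 was at 66.4, 45.5, 109.6, 151 and 131 in the C1qa-led cluster and at 77.2, 102, 513, 567 and 95.9 in the other. The second cluster's Mmp12 values rest on few cells, with 5 UMIs in 1 of 6 cells in fresh 10x 1, 41 UMIs in 3 of 46 in fresh 10x 2 and 263 UMIs in 13 of 88 in stored 10x, so no order is read from the fresh 10x libraries. In stored 10x and BD 1 (801 UMIs in 29 of 96 cells) it was higher in the second cluster, and in BD 2 (76 UMIs in 13 of 88 cells) it was lower.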
